A study of Mus musculus with 3 samples.

Results

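The serpins are a superfamily of protease inhibitors, and the members described here are all genes on a mouse expression array whose probe name begins with Serpin, a clade letter from a to i and a number. The rule found 54 genes with 73 probes, of 27678 gene names and 41174 gene probes on the array. Clade A held 20 genes, clade B 24, clades E, F and I 2 each, and clades C, D, G and H 1 each. A measured value was available for 50 of the 54 genes in liver, 51 in stomach and 48 in both.

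The tumours studied arose in AID Tg mice, which express activation-induced cytidine deaminase, an enzyme that deaminates cytidine in DNA, from a transgene. Liver cancer was compared with nontumour liver of the AID Tg mouse that bore it, and gastric cancer with nontumour stomach of the AID Tg mouse that bore it. Lung cancer of an AID Tg mouse was compared with normal lung of a Wt mouse, so in lung the tumour, the transgene and the animal cannot be told apart. The labels give no promoter for the transgene and no strain, sex or age. Each organ had 1 array, on which the tissues of a pair were labelled with Cy3 and Cy5, with no replicate and no array with exchanged dyes. No test between tissues can therefore be made, no difference below has a replicate check, and the errors given cover measurement only.

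The direction of the ratios is not settled by the sources. The labels put the tumour in Cy3 and the nontumour or Wt tissue in Cy5, whereas the authors' deposited table puts the Cy5-high spots, those with the brighter Cy5 signal, under headings that name them as up in tumours. Ratios are therefore reported by dye as log2(Cy5/Cy3), so a positive value is Cy5-high and a negative one Cy3-high. Under the table's headings Cy5 was the tumour channel, and under the dye labels it was the other tissue, with every sign turned.

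Inhibitory serpins work as suicide substrates: the target protease cuts an exposed reactive loop and is trapped in a covalent complex as the serpin changes shape. Clades A, C, D, F and G hold many plasma proteins made by hepatocytes, such as alpha-1-antitrypsin, antithrombin and the C1 inhibitor, and also hormone carriers that inhibit no protease. Clade B serpins lack a classical signal peptide and mostly act inside cells, and in the mouse they lie in a cluster on chromosome 1 and another on chromosome 13. Several genes of the chromosome 1 cluster are known for expression in squamous epithelium, which lines the mouse forestomach.

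Promoters are shown for some of the genes on which the liver and stomach results turn, because close relatives share much of this sequence and because the chromosome 1 genes differed in ratio from each other. The sequences are the 250 bases before the start of the RefSeq gene, build GRCm38.p6, whose table holds 52 promoters of 44 of the 54 genes. Promoters of Serpina6 and Serpinb1a are not shown. The letters TGANTCA, a looser form of the AP-1 motif in which N is any base, were searched on both strands. Matches are in capitals in the promoters of Serpinb5 (chr1:106860925-106861174 on the plus strand), Serpinb12 (chr1:106934199-106934448 on the plus strand) and Serpinb11 (chr1:107362064-107362313 on the plus strand).

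Serpinb5: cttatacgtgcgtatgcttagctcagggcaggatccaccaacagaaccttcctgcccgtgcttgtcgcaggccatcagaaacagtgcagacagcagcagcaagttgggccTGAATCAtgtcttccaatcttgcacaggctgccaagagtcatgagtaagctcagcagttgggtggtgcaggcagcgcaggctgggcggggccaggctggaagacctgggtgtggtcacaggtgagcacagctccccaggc

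Serpinb12: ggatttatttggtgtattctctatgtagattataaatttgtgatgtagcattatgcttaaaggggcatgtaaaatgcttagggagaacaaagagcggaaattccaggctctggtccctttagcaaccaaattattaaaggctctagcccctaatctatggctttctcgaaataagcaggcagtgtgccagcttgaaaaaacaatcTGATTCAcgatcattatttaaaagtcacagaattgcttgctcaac

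Serpinb11: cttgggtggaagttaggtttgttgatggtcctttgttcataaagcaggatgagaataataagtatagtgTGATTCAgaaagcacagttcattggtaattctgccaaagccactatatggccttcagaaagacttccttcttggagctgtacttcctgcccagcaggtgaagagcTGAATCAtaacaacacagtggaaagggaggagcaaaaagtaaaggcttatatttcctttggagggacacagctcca

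TGANTCA occurred in 8 of 13 promoters of chromosome 1 clade B genes, which belong to 7 of 11 genes, and in 0 of 14 promoters on chromosome 13, against 6.75% of all 32851 promoters of the same length. The RefSeq table gives Serpinb12 another start, whose promoter holds no match. Serpinb5 holds the motif as do Serpinb12 and Serpinb11, although its ratio in the stomach lay on the other side of 0. Of the chromosome 1 matches, those of Serpinb7 and Serpinb8 read TGAGTCA, the stricter AP-1 motif. The others, with all those in capitals, read TGAATCA or TGATTCA, so the count rests mostly on the looser form. A match of letters is a description and not a binding site. The next promoters belong to Serpinb3b (chr1:107161115-107161364 on the minus strand) and Serpinb3c (chr1:107278372-107278621 on the minus strand), neighbours on chromosome 1, with the TATA box TATAAA in capitals.

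Serpinb3b: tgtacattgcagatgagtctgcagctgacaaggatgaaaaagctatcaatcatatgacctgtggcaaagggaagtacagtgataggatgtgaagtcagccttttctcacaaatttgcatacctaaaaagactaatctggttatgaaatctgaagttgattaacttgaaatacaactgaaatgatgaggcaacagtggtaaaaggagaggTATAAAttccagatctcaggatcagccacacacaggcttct

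Serpinb3c: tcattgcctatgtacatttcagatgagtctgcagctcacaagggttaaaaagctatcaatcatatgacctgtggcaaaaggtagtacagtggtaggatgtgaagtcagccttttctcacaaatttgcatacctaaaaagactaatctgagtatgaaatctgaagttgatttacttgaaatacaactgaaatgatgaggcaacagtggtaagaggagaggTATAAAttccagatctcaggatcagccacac

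These promoters were 95.4% identical over 240 aligned positions. Transcripts of such close relatives can share probes, so values for Serpinb3a, Serpinb3b, Serpinb3c and Serpinb3d are uncertain as to the family member. The same holds for the Serpina1, Serpina3, Serpinb1, Serpinb6 and Serpinb9 genes. TATAAA, searched on both strands, occurred in 9 of 13 chromosome 1 clade B promoters and 1 of 14 on chromosome 13, against 12.4% of all promoters. The last promoters belong to alpha-1-antitrypsin genes of the liver, Serpina1b (chr12:103738190-103738439 on the minus strand) and Serpina1e (chr12:103956898-103957147 on the minus strand), with capitals on GTTAAT, part of the motif of the hepatocyte factor HNF1.

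Serpina1b: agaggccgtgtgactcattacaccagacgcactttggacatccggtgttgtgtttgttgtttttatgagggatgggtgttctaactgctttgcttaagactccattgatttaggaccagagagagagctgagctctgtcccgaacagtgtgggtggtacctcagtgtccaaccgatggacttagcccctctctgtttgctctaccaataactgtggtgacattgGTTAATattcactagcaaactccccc

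Serpina1e: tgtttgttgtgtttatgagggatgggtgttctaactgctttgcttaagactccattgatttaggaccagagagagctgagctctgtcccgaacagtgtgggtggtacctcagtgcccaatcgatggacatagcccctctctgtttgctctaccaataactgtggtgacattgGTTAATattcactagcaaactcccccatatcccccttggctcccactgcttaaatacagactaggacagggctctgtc

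Over 200 aligned positions they were 97.0% identical, and the annotated start of Serpina1e lies further downstream in the shared sequence. GTTAAT, searched on both strands, occurred in 6 of 17 clade A promoters, which belong to 5 of 14 genes, against 6.43% of all promoters. It also occurred in 3 of 13 chromosome 1 clade B promoters. Over the pairs of promoters with at least 150 aligned positions, median identity was 54.6% in clade A (50 of 91 pairs) and 54.2% in clade B (117 of 231 pairs). Identity above 80% was found in 4 of the clade A pairs and 6 of the clade B pairs.

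Of the 73 serpin probes, 64 were measured in liver and 66 in stomach. To count as measured, a probe needed 1 channel well above background and 1 channel free of saturation. On each array 7 probes were not well above background in either channel, and on the liver array the probes of Serpina1d and Serpina3m were saturated in both. Serpina1f was measured on neither array. The other genes without a value were Serpinb3d in liver and Serpina6 and Serpina11 in stomach. A gene had 1 or 2 probes, and the SD between probes, pooled over genes with several, was 0.23 over 14 serpins against 0.18 over all 8141 such genes in liver, and 0.55 over 15 serpins against 0.26 over 8047 genes in stomach. Over 24767 genes measured on both arrays the ratios of liver and stomach had a Pearson r of 0.10, across genes, which are not independent replicates.

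In the liver, clade A lay mostly on the Cy3 side, apart from Serpina6. Of 17 measured clade A genes, 13 had a ratio below 0, with a median of -0.19, whereas the median of all 25607 measured genes was 0.011 and 47.1% of them lay below 0. Several of the 13 were within their errors: Serpina5 (-0.16, error 2.83), Serpina12 (-0.19, error 1.79) and Serpina9 (-0.04, error 0.62). So were Serpina3b (-0.08, error 0.19), Serpina10 (-0.28, SD 0.52) and Serpina3f (0.00, SD 0.02). Above 0, Serpina3g, Serpina7 and Serpina3a were also within their errors. The 2-fold line (a log2 ratio of 1 in size) was passed by 1 of 50 serpins in the Cy5 direction, which is 2.0% against 0.152% of all genes, and by 0 of 50 in the Cy3 direction, against 0.0703%. Without loess, with median centring, 11 of 17 clade A genes lay below 0 and the median was -0.03, so the clade's distance from 0 depended on the normalization.

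Serpina6, or corticosteroid-binding globulin, carries glucocorticoids in blood and inhibits no protease. Its probe, at chromosome 12, 101140798 to 101140857 in the array files' coordinates (build not given in the sources used here), gave normalized intensities of 614 in Cy3 and 1965 in Cy5 on the liver array. The log2 ratio was 1.68, a 3.20-fold difference, with a scanner error of 0.21 (the scanner software's error of its own log ratio, on the log2 scale). It was well above background in both liver channels, and in the stomach it was well above background in neither.

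Several clade A genes were brighter in Cy3 in liver by less than 2-fold. Serpina3c, an antichymotrypsin-like gene of mouse liver, had the lowest gene mean after loess, with 15674 in Cy3 and 10139 in Cy5 (-0.63, scanner error 0.17). Serpina11 followed with 836 and 563 (-0.57, error 0.18), Serpina4-ps1, an annotated pseudogene, with 331 and 231 (-0.52, error 0.25), and the alpha-1-antitrypsin gene Serpina1e with 16817 and 11957 (-0.49, error 0.17). Another probe of Serpina4-ps1, which overlaps the first in position, was well above background in neither channel (65.3 and 60.9). Serpina1b, another alpha-1-antitrypsin gene, had 67143 in Cy3 and 51128 in Cy5 (-0.39, error 0.17). It was not flagged as saturated, but its Cy5 signal was close to that of saturated probes such as Serpina3m (51265), so its ratio may be a bound. The antichymotrypsin-like gene Serpina3k had -0.61 on a probe (50786 in Cy3, 33171 in Cy5), and its other probe (-0.28) was saturated in Cy5, so that ratio is a bound. Serpina3n, a relative, had -0.40 (error 0.17). The differences of Serpina3c, Serpina11, Serpina1e and Serpina3n exceeded their scanner errors. With median centring in place of loess these sizes shrank to -0.23 for Serpina3c, -0.25 for Serpina11, -0.09 for Serpina1e and -0.03 for Serpina3n, and Serpina1b turned to 0.03.

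The probes of Serpina10, the inhibitor of coagulation factor X that needs protein Z, disagreed, with 0.09 (308 in Cy3, 327 in Cy5) and -0.65 (572 and 365). The other clade A genes above 0 in liver besides Serpina6 were Serpina3g (0.25), Serpina7, the thyroxine carrier on the X chromosome (0.11), and Serpina3a (0.08). The authors' deposited table for liver listed Serpina6 as 3.35-fold brighter in Cy5, and 6 serpin spots as brighter in Cy3 by 1.38-fold to 1.67-fold. Among those were Serpina10, Serpina11, Serpina1e, Serpina3c and Serpina3k. Of the 73 serpin spots these are 1.37% in the Cy5 list, against 1.25% of all gene spots, and 8.22% in the Cy3 list, against 1.04%.

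**Figure D1:**
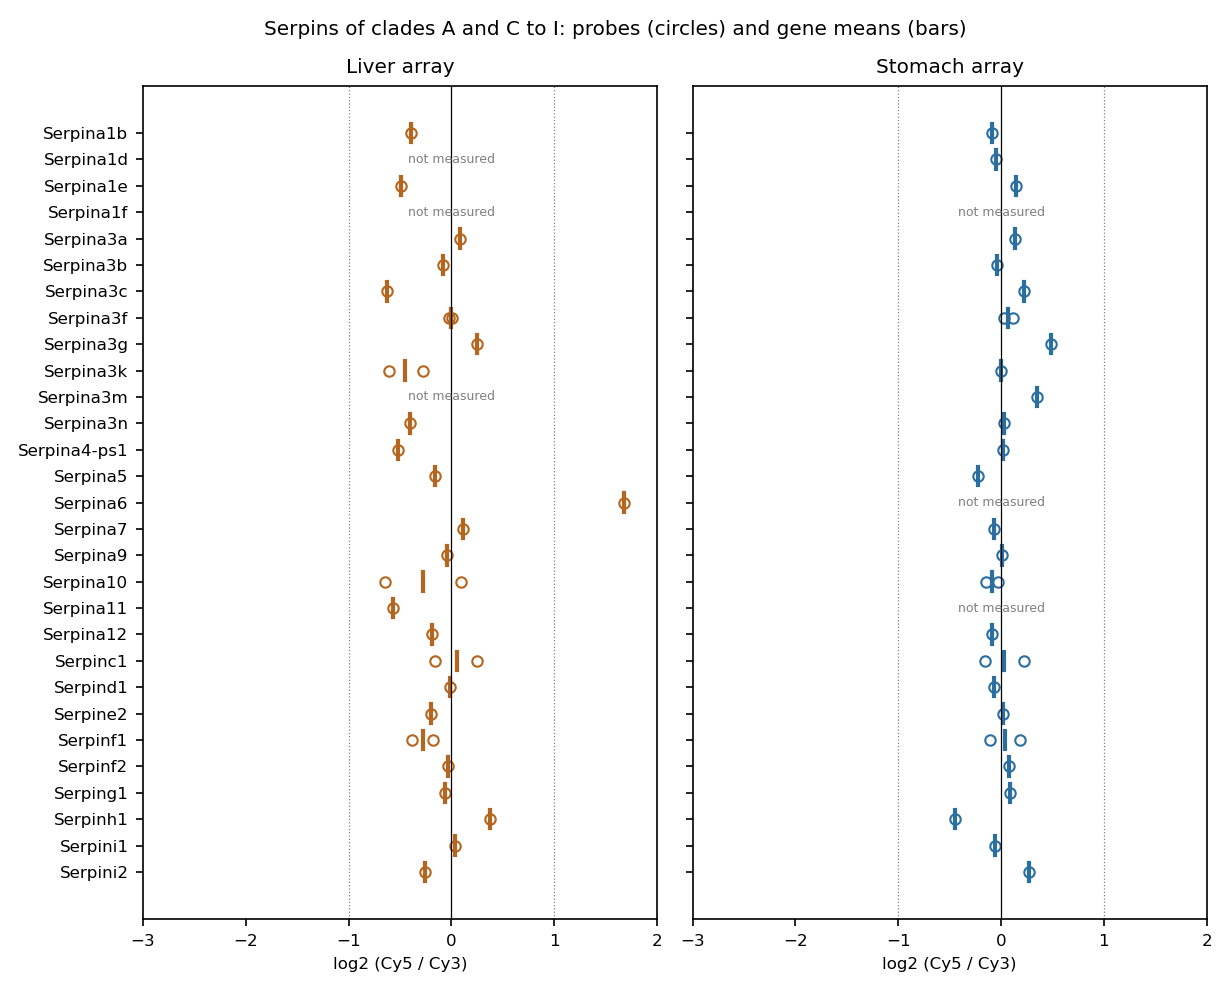
Log2 ratio of Cy5 over Cy3 for the serpin genes of clades A and C to I that are reported here, on the liver array (left) and the stomach array (right). Circles are probes, bars are gene means, solid lines mark 0 and dotted lines mark 2-fold; Serpina6 at 1.68 is the sole gene past a dotted line.

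Hepatocyte markers lay on both sides of 0 in liver. Of the list's 12 genes 8 were measured, 5 below 0 and 3 above, with a median of -0.23, a range from -0.75 to 0.53 and none past 2-fold, and their summed intensity was 167062 in Cy3 and 144512 in Cy5. The markers' part in the clade A values was not tested. In tissue RNA, fewer cells of a type and less RNA per cell cannot be told apart.

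The other plasma serpins of the liver stayed close to 0. Serpinc1, antithrombin, had probes of 0.25 (29179 in Cy3, 34711 in Cy5, scanner error 0.16) and -0.16 (1466 and 1314, error 0.17). Serpind1, heparin cofactor II, had 9139 and 9046 (-0.01, scanner error 0.16), Serpinf2, the plasmin inhibitor alpha-2-antiplasmin, 6253 and 6104 (-0.03, error 0.16), and Serping1, the C1 inhibitor, 4892 and 4696 (-0.06, error 0.16). The differences of Serpind1, Serpinf2 and Serping1 are smaller than their errors, and that of the brighter Serpinc1 probe is larger. Serpinf1, the angiogenesis inhibitor PEDF, had -0.18 (7223 in Cy3, 6371 in Cy5) and -0.38 (563 and 432) from its probes. Under median centring Serpind1 had 0.38, Serpinf2 0.35, Serping1 0.32 and Serpinf1 0.06, so no direction is given for these bright genes.

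Serpinh1, the collagen chaperone HSP47 of the endoplasmic reticulum, was higher in Cy5 in liver, with 230 in Cy3 and 299 in Cy5 (0.38, scanner error 0.26). Serpine2, protease nexin 1, was well above background in Cy5 alone (-0.20, error 3.52), and Serpini1, neuroserpin, had 0.03 and Serpini2 -0.26. In clade B the highest liver gene was Serpinb1a, an inhibitor of neutrophil proteases, with 112 in Cy3 and 182 in Cy5 (0.70, error 0.54). The lowest was Serpinb9b (-0.60, error 3.45), which was not well above background in Cy5. The clade B genes of chromosome 1 spanned -0.14 to 0.22 in liver, with a median of 0.04.

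In the stomach the pattern lay in clade B, and it differed between the chromosomes. Of the 12 chromosome 1 genes 10 were below 0, with a median of -0.63, whereas the 12 chromosome 13 genes had a median of 0.18 with 7 above 0. Over all 25323 measured genes the median was 0.001, with 49.8% below 0. At least 2-fold Cy3-high were Serpinb12, Serpinb3b and Serpinb3c, 3 of 51 measured serpins or 5.88%, against 1.41% of all genes. No serpin, 0 of 51, was at least 2-fold Cy5-high, against 0.873% of all genes. With median centring in place of loess the chromosome 1 median was -0.71 and the chromosome 13 median 0.41.

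Serpinb3b, a relative of the human squamous cell carcinoma antigens, had the lowest mean over probes of all serpins. Its probe (chromosome 1, 107054015 to 107054074 in the files' coordinates) gave 442 in Cy3 and 79.8 in Cy5, a 5.54-fold difference (-2.47, scanner error 0.43). Serpinb12, an epithelial serpin, had a probe with 906 in Cy3 and 136 in Cy5 (-2.73, error 0.32) and a dimmer one with 109 and 69.4 (-0.64, error 1.36), hence a mean of -1.69 with an SD of 1.48. With the brightest probe taken for each gene Serpinb12 was the lowest. Serpinb3c had 427 and 127 on its brighter probe (-1.75, error 0.32) and 113 and 81.5 on the other (-0.47, error 1.09). All 5 probes of these genes were brighter in Cy3 and well above background in both channels. On the liver array the same genes had ratios of -0.14, 0.03 and 0.02.

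The chromosome 1 genes with a ratio below 0 lay next to each other, but Serpinb12, past 2-fold, was not a neighbour of Serpinb3b and Serpinb3c. In the order of the files' coordinates the cluster runs Serpinb5, Serpinb12, Serpinb13, Serpinb3a, Serpinb3d, Serpinb3b, Serpinb3c, Serpinb11, Serpinb7, Serpinb2, Serpinb10 and Serpinb8. All 10 genes from Serpinb12 to Serpinb10 were below 0 in stomach, from -2.47 to -0.12 with a median of -0.72, while the outer genes Serpinb5 and Serpinb8 were above 0. This stretch was singled out after its values were seen. Serpinb13, known as headpin in squamous epithelium, had 127 in Cy3 and 73.7 in Cy5 (-0.79, scanner error 1.02), and Serpinb11 had 196 and 113 (-0.79, error 0.49). Serpinb2, plasminogen activator inhibitor 2, had 125 and 81.7 on a probe and 115 and 74.9 on the other, -0.62 on both. Serpinb10 had -1.15 on a dim probe and -0.16 on a brighter one, Serpinb3a -0.33, Serpinb3d -0.33 and Serpinb7 -0.12, and with median centring Serpinb7 turned to 0.19. After loess the values of Serpinb13, Serpinb10 (mean -0.65, SD 0.70), Serpinb3d (error 4.58) and Serpinb7 (error 0.29) were within their errors. The scanner error belongs to the scanner's own ratio. That ratio exceeded it for Serpinb13 (-1.88, error 1.02) and the dim Serpinb10 probe (-2.44, error 1.02). It did not for the Serpinb3a probes (-0.31, error 1.05, and -1.48, error 3.10). The Serpinb2 probes overlap in position, so their equal ratios are not separate checks. By the scanner ratio they had -1.37 (error 0.93) and -1.61 (error 1.07).

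Serpinb5, or maspin, is a serpin of epithelial cells that inhibits no protease. It stood apart from the cluster in stomach, with 910 in Cy3 and 1428 in Cy5 (0.65, scanner error 0.17), a difference above its error, and with median centring its ratio was 1.32, past 2-fold. Serpinb8, at the cluster's other end, had 0.20 (SD 0.16 between 2 probes) and turned to -0.09 with median centring. In liver Serpinb5 was well above background in Cy5 alone (56.8 in Cy3, 66.3 in Cy5).

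**Figure D2:**
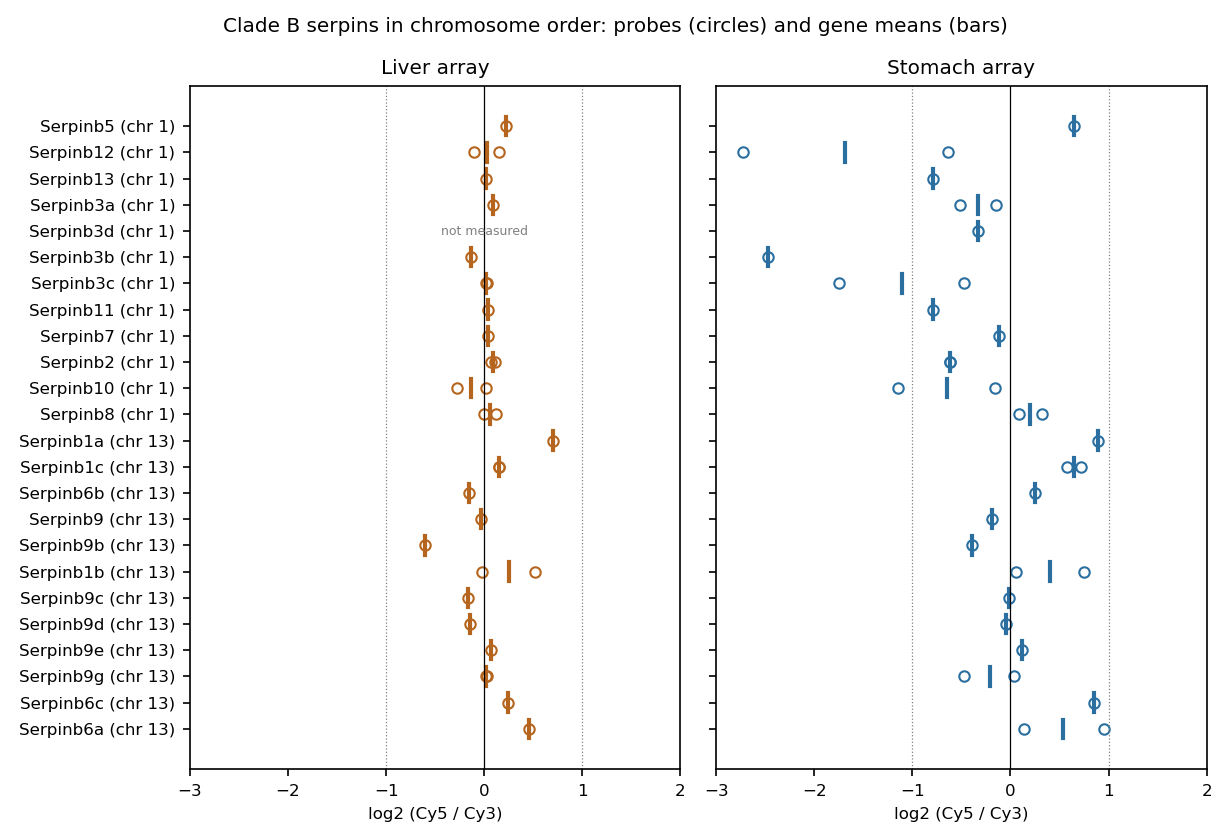
Log2 ratio of Cy5 over Cy3 for the clade B serpins, in the order of their probes along chromosomes 1 and 13, on the liver array (left) and the stomach array (right). Circles are probes, bars gene means and dotted lines 2-fold; in stomach the 10 genes from Serpinb12 to Serpinb10 lie left of 0 and Serpinb5 lies right of it at 0.65.

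On chromosome 13 the Serpinb1 and Serpinb6 genes had means on the Cy5 side in the stomach, though not all beyond their errors. Serpinb1a, the mouse counterpart of the leukocyte elastase inhibitor, had the highest mean over probes of all serpins after loess, with 1516 in Cy3 and 2817 in Cy5, a 1.86-fold difference (0.89, scanner error 0.18). Its relative Serpinb1c had 214 and 319 on a probe and 316 and 519 on the other (0.65, SD 0.10 between probes), and Serpinb1b had 0.75 on its brighter probe (209 and 351) and 0.06 on the other (75.9 and 78.9). Serpinb6c had 335 and 603 (0.85, error 0.21). Serpinb6a, an inhibitor of cathepsin G, had 626 and 1206 on its brighter probe (0.95, error 0.19) and 62.9 and 69.4 on the other (0.14, error 4.12). The means of Serpinb6a (0.54, SD 0.57) and Serpinb1b (0.40, SD 0.49) were within the SD between their probes. Serpinb6b had 466 and 555 (0.25, error 0.19). These 6 genes stayed above 0 under median centring, an offset of 10 and the scanner ratio. With median centring Serpinb1a had 1.68, Serpinb6c 1.32 and Serpinb1c 1.04, all past 2-fold. The highest serpin was Serpinb6a with the brightest probe of each gene, Serpinb6c (0.92) with the offset of 10 and Serpine2 by the scanner ratio. The Serpinb9 genes, related to the granzyme B inhibitor Serpinb9, ranged from -0.39 for Serpinb9b to 0.12 for Serpinb9e.

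How many stomach serpins passed 2-fold depended on the setting. The normexp offset of 50 pulls ratios of dim spots towards 0, and the scanner software's own ratio does not use it. By that ratio 8 of 51 serpins (15.7%) were at least 2-fold Cy3-high, against 4.14% of all genes, and 4 (7.84%) at least 2-fold Cy5-high, against 4.32%. The 8 were Serpinb2, Serpinb3b, Serpinb3c, Serpinb3d, Serpinb10, Serpinb11, Serpinb12 and Serpinb13, all of the chromosome 1 cluster, and its median was -1.29. Serpinb3d (-1.21, scanner error 4.58) was not well above background in Cy5. With the offset of 10 the Cy3-high serpins were also 8, against 2.32% of all genes, of which 7 lay on chromosome 1 and 1, Serpinb9b (-1.09), on chromosome 13. By the scanner ratio Serpinb3b had -3.65 and Serpinb12 -2.58, and the 4 Cy5-high genes were Serpinb6c (1.07), Serpinb8 (1.03), Serpine2 (1.68) and Serpini2 (1.25); Serpine2 and Serpini2 were not well above background in Cy3, with scanner errors of 4.92 and 3.19, and the errors of the Serpinb8 probes were 2.15 and 2.26. With median centring 4 serpins were again Cy5-high, Serpinb1a, Serpinb1c, Serpinb5 and Serpinb6c, against 4.02% of all genes. In liver the scanner ratio put 3 serpins past 2-fold in Cy5 (6.0%, against 2.11% of all genes), namely Serpina6, Serpinb1a (1.27) and Serpinb1b (2.05), and Serpinb9b (-2.58, error 3.45) in Cy3 (1 of 50, or 2.0%, against 1.64%).

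**Figure D3:**
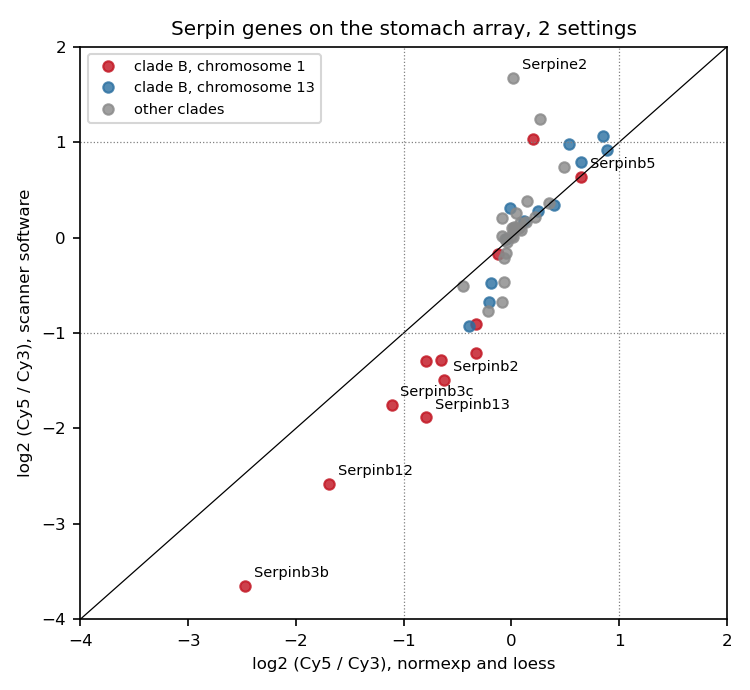
Each point is a reported serpin gene on the stomach array, with its log2 ratio of Cy5 over Cy3 after normexp and loess (horizontal axis) and by the scanner software (vertical axis). The solid line marks equal values and dotted lines 2-fold; 8 chromosome 1 genes lie below the lower dotted line by the scanner ratio, and 3 of them lie left of it after normexp and loess.

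Markers of squamous epithelium lay on the same side as the chromosome 1 cluster in stomach. Of the list's 15 genes, all measured, 11 were at least 2-fold Cy3-high and 1, the cornified envelope gene Ivl, at least 2-fold Cy5-high (1.16). The shares of all genes were 1.41% and 0.873%. The list's median was -1.62, and its summed intensity was 37267 in Cy3 and 7482 in Cy5. Lor had -4.20, Krt4 -3.84 and Krt5 -2.11. The squamous markers' part in the serpin values was not tested. Gastric gland markers also lay on the Cy3 side, with 9 of 10 at least 2-fold, while 5 of 9 measured intestinal markers were at least 2-fold Cy5-high.

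Cystatin-type inhibitors of cysteine proteases, which are not serpins, were on the Cy3 side of the stomach array as well. Of 16 measured inhibitors outside the serpin family, 3 were at least 2-fold Cy3-high: Stfa3 (-2.11, scanner error 0.38), Csta1 (-1.65, error 0.76) and Cst6 (-1.53, error 0.28). None of the 16 was at least 2-fold Cy5-high, and their median was -0.03. Among 21 measured tissue and leukocyte proteases, the targets of many clade B serpins, 3 reached 2-fold, all on the Cy5 side: the mast cell proteases Mcpt2 (1.54, error 0.74) and Mcpt1 (1.17, error 0.41) and the lysosomal cathepsin Ctss (1.36, error 0.20).

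Outside clade B the stomach serpins stayed within 2-fold. The highest of clade A was Serpina3g, a serpin of activated leukocytes, with 123 in Cy3 and 172 in Cy5 (0.49, scanner error 0.53), and the lowest Serpina5, the protein C inhibitor (-0.22, error 3.13). Serpina3m had 605 and 773 (0.35, error 0.18). Serpinh1 had 711 in Cy3 and 520 in Cy5 (-0.45, error 0.19), but 0.09 under median centring, so its side of 0 depends on the normalization. Of 14 collagen synthesis genes, 1 was at least 2-fold, the prolyl hydroxylase subunit P4ha2 (-2.33, error 0.27), and their median was 0.08. The plasma serpins Serpinc1 (0.03), Serpind1 (-0.07), Serpinf1 (0.04), Serpinf2 (0.08) and Serping1 (0.09) had small ratios there. Serpine2 had 0.02, Serpini1 -0.06 and Serpini2 0.27.

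In the authors' deposited table for stomach, 7 serpin spots of 6 genes were listed as Cy5-high, 9.59% of the 73 serpin spots against 4.0% of all gene spots. They were Serpinb1a, Serpinb1b, Serpinb1c, Serpinb5, Serpinb6a and Serpinb6c, all clade B, by 1.56-fold to 2.10-fold. As Cy3-high the authors' deposited table listed 5 spots, 6.85% against 3.33%. Serpinb3b was listed at 12.6-fold, Serpinb12 at 9.68-fold, Serpinb3c at 4.99-fold, Serpinb11 at 2.45-fold and Serpinh1 at 1.42-fold.

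For lung, the values used are those of the authors' deposited table, which starts at 2-fold and gives no error. A spot absent from it has no value here, and rows were joined to serpin probes by spot number on the assumption of 1 array design. The table listed 6 of 73 serpin spots as Cy5-high, or 8.22%, against 5.51% of all gene spots, and 6 as Cy3-high, again 8.22%, against 9.78%. In the Cy3 direction the serpin share was thus below that of all spots.

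Among the Cy5-high lung serpins were 4 clade B genes. Serpinb5 was 42.7-fold brighter in Cy5 in the authors' deposited table. Serpinb1b was listed at 2.73-fold, Serpinb1c at 2.62-fold and 2.47-fold on its 2 probes and Serpinb1a at 2.29-fold. The other probe of Serpinb1b was not listed. None of the chromosome 1 genes that were past 2-fold in stomach, Serpinb12, Serpinb3b and Serpinb3c, was listed for lung. Of all gene spots 5.51% were listed as Cy5-high and 9.78% as Cy3-high, so the absence of these few spots does not set the organs apart.

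The Cy3-high lung serpins came from several clades. Serpinb9, the granzyme B inhibitor of cytotoxic cells, was listed at 3.75-fold in the authors' deposited table, the collagen chaperone Serpinh1 at 3.48-fold and the C1 inhibitor Serping1 at 3.33-fold. Serpina3g followed at 2.67-fold, Serpinf1 at 2.22-fold and Serpina3f at 2.06-fold. Serpinb9, Serpinf1 and Serpina3f each have another probe, which was not listed. No member was listed in both directions.

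By the scanner ratio of the same spots, the organs can be set side by side for the listed genes. Serpinb1a had 1.27 in liver, 0.92 in stomach and 1.20 in lung, on the Cy5 side in all 3 organs. The probes of Serpinb1c had 0.85 and 0.73 in stomach and 1.39 and 1.31 in lung; in liver they had 0.40 and 0.31, with errors of 2.11 and 1.54. Serpinb5 had 0.64 in stomach against 5.41 in lung. Serpinh1 had 0.49 in liver, -0.51 in stomach and -1.80 in lung. Serping1 had -0.06 in liver and 0.08 in stomach, both within their scanner errors of 0.16 and 0.38, against -1.74 in lung. Differences between organs were not tested.

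**Figure D4:**
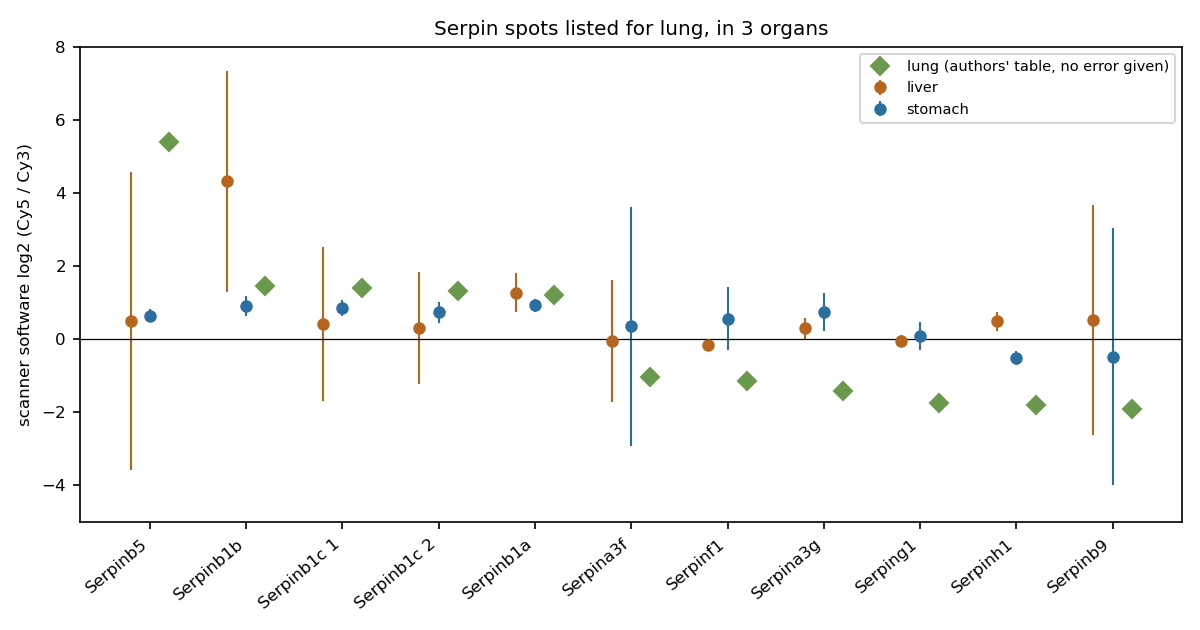
Scanner software log2 ratio of Cy5 over Cy3 at the reported serpin spots listed for lung, in liver, stomach and lung; the labels 1 and 2 after Serpinb1c mark its 2 probes. Bars are the scanner software's error, which the lung table does not give; Serpinb5 in lung stands highest at 5.41, above its 0.64 in stomach, and the liver value of 4.32 for Serpinb1b (error 3.02) is from a spot not well above background in Cy3.

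Proteases and receptors that serpins act on were listed for lung in both directions. Of 22 tissue and leukocyte proteases, 5 were listed as Cy5-high in the authors' deposited table and 1, the granzyme Gzma, as Cy3-high (2.71-fold). Of all gene spots 5.51% were listed as Cy5-high and 9.78% as Cy3-high. The list counts here and below are of genes, some with several spots, so they are not directly comparable with these shares. Mcpt1 was listed at 15.8-fold, Tmprss2 with log2 ratios of 3.45 and 2.55 on 2 probes, Mcpt4 at 9.89-fold and Plat, the tissue plasminogen activator, at 5.97-fold and 3.65-fold. Plaur, the receptor of urokinase, was Cy5-high at 5.50-fold and 3.72-fold in the authors' deposited table. Of the 12 serpin receptors and cofactors 2 were Cy5-high and 5 Cy3-high. Thbd, the thrombin receptor thrombomodulin of endothelium, was listed at 38.0-fold Cy3-high, and Vtn, the adhesion protein vitronectin, at 3.22-fold.

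Of the 15 plasma cascade proteases, 4 were listed for lung as Cy5-high and 2 as Cy3-high. In the authors' deposited table Hgfac, the activator of hepatocyte growth factor, was Cy5-high at 16.6-fold and Proc, protein C, at 6.90-fold. The Cy3-high genes were complement proteases that Serping1 inhibits, C1ra at 6.27-fold and C1s1 at 4.37-fold and 3.14-fold in the authors' deposited table, while Masp1 and Masp2, other targets of Serping1, were not listed. Another probe of C1ra was not listed. Markers of several cell types were Cy3-high in lung: 8 of 8 endothelial markers, 7 of 10 alveolar and airway markers and 6 of 9 T and NK cell markers were listed as Cy3-high, and none of these lists had a Cy5-high member. On the Cy5 side, with Serpinb5, were 5 of 10 intestinal, 5 of 15 squamous and 4 of 12 hepatocyte markers, while 1 squamous marker, Calml3, and 1 hepatocyte marker, Trf, were Cy3-high. The part of these cell types in the lung serpin values was not tested. Of 14 collagen synthesis genes 3 were listed as Cy5-high, among them Col1a1 at 2.81-fold, and 1, Pcolce, as Cy3-high at 3.16-fold, whereas Serpinh1 was Cy3-high. Other probes of Col1a1 were not listed.

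Among plasma cascade proteases, the targets of the liver serpins, no gene passed 2-fold in liver: the 15 had a median of -0.11, with Hpn lowest (-0.54) and Proc highest (0.52). In stomach Proc was Cy3-high (-1.20, scanner error 0.27) and Hgfac Cy5-high (1.17, error 0.19). Agt, which encodes angiotensinogen and belongs to the serpin superfamily under another name, had -0.40 in liver (error 0.17) and -0.56 in stomach (error 0.30). Among inhibitors outside the family, Itih1, an inter-alpha-trypsin inhibitor chain made in liver, was the sole member past 2-fold in liver (-1.08, error 0.19) of 17 measured. Of all genes 0.0703% were at least 2-fold Cy3-high there.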

How the data were processed

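Total RNA (500 ng, per the labels' protocols) was amplified and hybridised to 2-colour Agilent arrays read with Agilent Feature Extraction 8.5.1.1, per the submitters' processing notes. The deposited intensity columns hold mean spot signals, local background medians and signals processed by the scanner software, per the file headers. The deposited log10 ratio is Cy5 over Cy3, with an error, a score that the software estimated, per the file headers. The authors' deposited table holds the log10 ratio of listed spots; for liver and stomach its values equalled the scanner files, with a smallest fold of 1.35. Lung scanner values were not analysed here, and no build for the probe positions is given in the sources used here.

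Using limma 3.58.1 in R 4.3.3, backgrounds were removed by normexp (offset 50) and the ratios of each array were normalized by loess, with weight 0 for controls. Control and outlier spots were dropped, spots averaged per probe and probes averaged per gene. On simulated data with 41534 spots, a log2 change of 1 was recovered as 0.914 in liver and 0.923 in stomach. The changed spots were drawn only from the brighter spots, so recovery at dim spots, such as those of many serpins, was not simulated. Of the simulated spots with a change of 1 a share of 0.2 passed the 2-fold line on each array, and with a change of -1 a share of 0.12 in liver and 0.08 in stomach, so counts past 2-fold leave out most changes of that size. Python 3.11.15, pandas 2.3.3 and Biopython 1.88 did the rest.

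RefSeq (GRCm38.p6) paired 63 of 73 serpin probe accessions with the array's symbol, 0 with another, and did not hold 10. Promoters were aligned globally with free end gaps. Named genes were those past 2-fold in liver or stomach or listed for lung, and the highest and lowest of each clade; others named were chosen after their values were seen, among them the neighbours on chromosome 1. The values of 1 member are not reported here, though counts include it. From related lists, at most 4 genes per list and organ were named with values. Members and lists were chosen with earlier results of these data known. No test was possible with 1 array per organ; the number of arrays limits precision, and 7 alternative settings were run.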

Additional observations from a re-analysis of the deposited data

Results flagged for a closer look

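At 2 probes the scanner ratio pointed to opposite channels in 2 organs by at least 1.5-fold; with 1 array per organ the differences were not tested. Serpina3g had 0.74 in stomach and -1.42 in the authors' deposited table for lung. Serpini2 had -0.63 in liver (scanner error 0.68) and 1.25 in stomach (scanner error 3.19), where it was not well above background in Cy3.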

How the results depend on the processing

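No paired analysis was possible because each organ had 1 array and no replicate number. For the same reason no replicate could be left out, and dim signal limits the values: a ratio near background depends on the offset. At 1.5-fold in place of 2-fold, 2 liver serpins were Cy5-high and 2 Cy3-high, and 4 stomach serpins were Cy5-high and 7 Cy3-high. The shares of all genes at 1.5-fold are not given here, so these counts cannot be set against them. By the scanner software ratio at 2-fold the counts in the same order were 3, 1, 4 and 8. With an offset of 10, 2 liver serpins were Cy5-high, 1 liver serpin Cy3-high and 8 stomach serpins Cy3-high. Of all 25607 liver genes 113 were then Cy5-high and 104 Cy3-high, and of all stomach genes 2.32% were Cy3-high. With median centring 4 stomach serpins were Cy5-high and 3 Cy3-high, against 1017 and 235 of all 25323 genes. Of all genes past 2-fold in stomach 81.2% were then Cy5-high, against 38.2% with loess, 51.0% by the scanner ratio and 42.9% with the offset of 10. In liver those shares were 94.0% with median centring, 68.4% with loess, 56.3% by the scanner ratio and 52.1% with the offset of 10. At 3-fold, 2 serpin spots of lung were Cy5-high and 3 Cy3-high, and the share of all spots at 3-fold is not given here. Of 320 values of 24 named genes under alternatives, 288 moved by less than their error and 32 by more, of which 17 under median centring, 9 by the scanner ratio and 6 with the offset of 10. The error was each gene's own, so these counts do not measure stability. By the scanner ratio Serpinb9b in liver went from -0.60 to -2.58 and counted as within its error of 3.45. Serpinb3c in liver went from 0.02 to 0.11 and counted as beyond its SD of 0.01. The filters on dim and saturated probes and the choice of the brightest probe moved none of the 320 beyond its error. For the brightest probe this was fixed in advance, as it cannot move a gene beyond the SD between its 2 probes. The same holds where a filter drops 1 of 2 probes. Serpinb12 in stomach went from -1.69 to -2.73 with the brightest probe and still counted as within its SD of 1.48. The cause of these shifts was not tested.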
